A study of Mus musculus with 15 samples.

Results

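Mammalian apparent LTR retrotransposons (MaLRs) were described class by class in RNA from mouse embryonic stem cells depleted of TET1 or TET2. The members were chosen by name from the repeat table. They are every class whose name begins with ORR1, MTA to MTE, MLT1, MST or THE1, with MT2 left out because MT2 classes are the long terminal repeats (LTRs) of MERVL elements. The rule found 100 of 1217 repeat classes, of which 25 were ORR1, 19 were MT and 56 were MLT1, and no MST or THE1 class was listed. Internal parts, marked by the ending -int, made up 51 of the 100, and the other 49 were LTRs. All 100 passed the filter on low values, for which 5 or more of the 15 libraries had to hold at least 1 read of the class, and 91 had reads in every library.

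All libraries came from the E14 embryonic stem cell line (129/Ola background), grown on gelatin without feeder cells in medium with serum and LIF. Cells had been infected with a lentiviral pLKO.1 vector coding for 1 short hairpin RNA and were collected after 3 days under 1 µg/ml puromycin by the labels. The dose differs in the study's methods. The 3 groups of 5 libraries carried a scrambled hairpin (shScr, the control), a hairpin against Tet1 (shTet1) or a hairpin against Tet2 (shTet2). As each gene was targeted with 1 hairpin, an effect of the hairpin and an effect of losing the enzyme cannot be told apart, and the labels do not say that the 5 libraries of a group came from separate cultures, so p-values measure the spread between these libraries.

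MaLRs are retrotransposons related to the ERVL class of endogenous retroviruses. They are flanked by LTRs, which carry the promoter and the site where transcripts end, and the sequence in between does not code for the proteins needed to move, so that they depend on enzymes supplied by other elements. ORR1 and MT are rodent families and MLT1 is an older family shared across mammals, and within a family the letter A generally names the younger classes. MT and ORR1 LTRs are known as promoters in oocytes and early embryos, and MERVL with its LTR MT2_Mm marks the rare cells of a stem cell culture that resemble the 2-cell embryo. TET enzymes oxidise the methyl group of cytosine in DNA.

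Values were on a variance-stabilised scale that approaches log2 of reads scaled to each library's gene reads, with a minimum of 2.39 for 0 reads, and a difference of 1 is close to a 2-fold change for classes with many reads. Gene reads per library ranged from 15258291 to 35432425, and MaLR reads from 262651 to 808616, which was 2.98% to 4.54% of all repeat reads. Tet1 differed by −1.84 in shTet1 against shScr (SE 0.19, adjusted p = 0.000228, limma) and Tet2 by −1.90 in shTet2 (SE 0.13). Mean scaled reads of the 8 embryonic stem cell markers, among them Pou5f1 and Nanog, lay between 3062 (Klf4) and 27998 (Tdgf1), whereas the highest fibroblast marker was Thy1 at 113. Libraries of the same group differed in their repeat median, the median over the 1187 tested repeat classes, which ran from 7.92 to 8.98 for shScr, 7.85 to 8.88 for shTet1 and 8.01 to 8.82 for shTet2. Receptor genes of the nose (olfactory and vomeronasal), which stem cells are not known to use, held over 50 of 1000000 gene reads in 4 libraries. These were shScr replicate 4, shTet1 replicates 3 and 4, and shTet2 replicate 4, each with a high repeat median. The highest repeat median of shTet2, 8.82, was in replicate 3, which had 26.5 receptor reads in 1000000. Because a read with several equal positions was kept at 1 of them, classes with similar copies, such as the ORR1A internal parts, may hold some of each other's reads.

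ORR1A3-int, the internal part of the ORR1A3 subfamily, was the 1 MaLR class called between groups. It was lowest in shTet1 and highest in shTet2. For shScr replicates 1 to 5 its value was 13.87, 14.60, 14.16, 14.44 and 13.93. For shTet1 it was 11.77, 12.51, 13.91, 13.50 and 13.48, and for shTet2 it was 14.64, 15.09, 14.85, 15.08 and 14.62. Every shTet2 library was above every library of the other 2 groups, though the lowest shTet2 library exceeded the highest shScr library by little, and 1 shTet1 library lay within the range of shScr.

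ORR1A3-int averaged 14.20 ± 0.32 for shScr, 13.04 ± 0.87 for shTet1 and 14.86 ± 0.23 for shTet2 (SD, n = 5 each). On the linear scale this was 19174 ± 4283 scaled reads for shScr, 9554 ± 4818 for shTet1 and 30009 ± 4704 for shTet2, so that shTet1 stood at 49.8% and shTet2 at 157% of the control mean. The knockdowns thus lay on opposite sides of the control. Against each other they differed 3.14-fold in mean scaled reads, and by 1.82 on the log2 scale (SE 0.33, 95% confidence interval 1.13 to 2.51). This difference was higher in shTet2 in 5 of 5 pairs of equal replicate number and had an adjusted p of 0.0145 in limma over all 1187 classes, of which 0.253% were called in this comparison.

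Against shScr, ORR1A3-int did not pass the adjusted threshold in either knockdown. The difference was −1.16 in shTet1 (95% confidence interval −1.85 to −0.47, adjusted p = 0.99, lower in 5 of 5 pairs) and 0.66 in shTet2 (−0.03 to 1.35, adjusted p = 1.00, higher in 5 of 5 pairs). The percentage of repeat classes called was 0 in both of these comparisons. The 3 comparisons share groups and are not independent of each other.

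The shTet1 libraries were not alike in ORR1A3-int. Replicates 1 and 2 were at 11.77 and 12.51, below the other 3, and the 2 sets of replicates gave different sizes of effect. Within replicates 1 and 2 the difference from shScr was −2.09 in shTet1, and within replicates 3 to 5 it was −0.54, while for shTet2 it was 0.64 and 0.68. Between the knockdowns it was 2.73 within replicates 1 and 2 (adjusted p = 0.0339) and 1.22 within replicates 3 to 5 (adjusted p = 0.234). Without the 4 libraries with many receptor reads it was 2.22 (adjusted p = 0.00247), and −1.55 in shTet1 against shScr (adjusted p = 0.0803). The call between the knockdowns was lost without shTet1 replicate 2 (adjusted p = 0.0595), shTet2 replicate 2 (0.0589) or shTet2 replicate 4 (0.0559), with differences of 1.51 to 2.04 over all 15 ways of leaving out 1 library.

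The LTR of the same subfamily, ORR1A3, did not follow its internal part. Its values were 11.73, 11.97, 11.63, 12.51 and 11.26 for shScr, 11.25, 11.27, 12.33, 12.34 and 11.27 for shTet1, and 11.52, 11.57, 12.29, 12.31 and 11.68 for shTet2. The 3 groups overlapped over nearly their whole range. The libraries with a high repeat median were the high ones in each group. ORR1A3 differed by −0.13 in shTet1 and 0.05 in shTet2 against shScr, and by 0.18 between the knockdowns (SE 0.30, 95% confidence interval −0.45 to 0.82), none of them called.

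**Figure D1:**
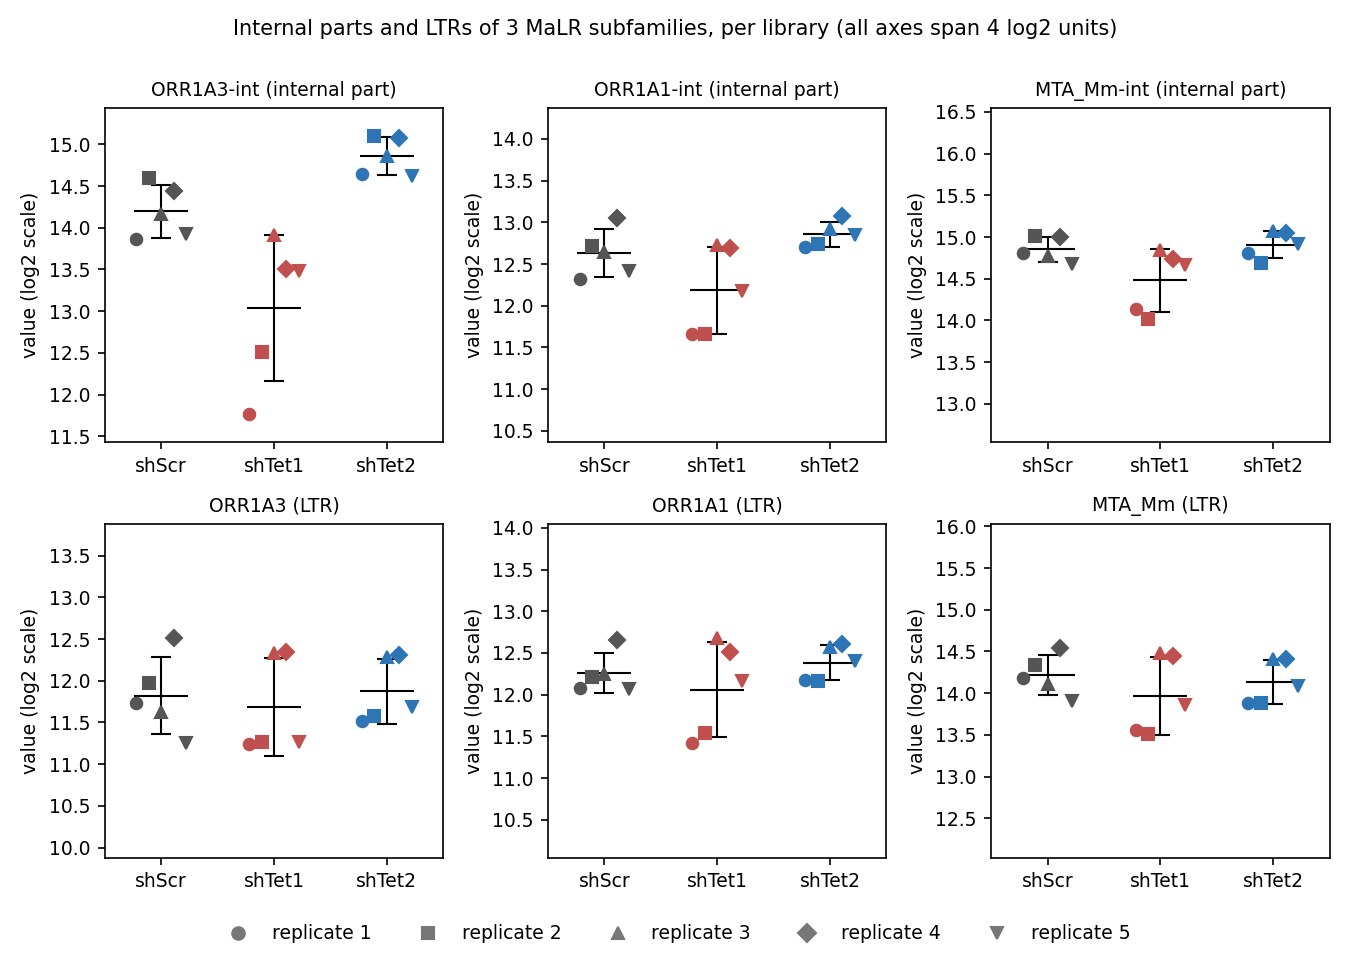
Value of 3 MaLR internal parts (top) and of their LTRs (bottom) in each library, on the log2 scale with every axis spanning 4 units; symbols are replicates, and bars show the mean and SD of 5 libraries. ORR1A3-int separates shTet2 from shTet1, ORR1A1-int and MTA_Mm-int show smaller differences in the same order, and the LTRs overlap between groups.

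Internal part and LTR were therefore also compared within each library, which leaves out what they have in common there. ORR1A3-int exceeded ORR1A3 by 2.38 ± 0.33 for shScr, 1.35 ± 0.62 for shTet1 and 2.99 ± 0.36 for shTet2 (SD, n = 5 each). For shTet1 the 5 values ran from 0.52 to 2.21, for shScr from 1.93 to 2.67 and for shTet2 from 2.57 to 3.52, so that the knockdowns did not overlap each other and each overlapped the control. This excess differed by −1.03 in shTet1 from shScr (two-sided exact permutation test, p = 0.0238), higher by 0.61 in shTet2 than in shScr (exact permutation p = 0.0238), and higher by 1.64 in shTet2 than in shTet1 (exact permutation p = 0.00794, the smallest that 5 against 5 allows). Adjusted over the 3 comparisons the exact permutation p was 0.0238 for each. This test did not use the replicate numbers. The direction was the same in 5 of 5 pairs of equal number in each comparison, and an exact sign-flip test within pairs gave p = 0.0625, the smallest that 5 pairs allow. ORR1A3-int had been singled out with earlier results of these libraries known, so these tests are not independent evidence for it.

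For 48 of the 51 internal parts the table also held an LTR of the same name. In the other 47 pairs the difference of the internal part minus that of its LTR had a median of −0.01 between the knockdowns, with a range of −0.56 (MLT1N2-int) to 0.48 (MLT1E1A-int). Among the 25 of these pairs with a median of at least 100 reads per library in the internal part, the range was −0.32 (MTE2a-int) to 0.35 (ORR1A1-int), against 1.64 for ORR1A3-int. In shTet1 against shScr the same 25 ran from −0.25 (ORR1A1-int) to 0.26 (MLT1H-int), and in shTet2 against shScr from −0.34 (ORR1A0-int) to 0.22 (ORR1B2-int).

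The other ORR1A classes differed less between groups, and none was called. All 5 ORR1A internal parts and all 5 ORR1A LTRs were lower in shTet1 than in shScr and higher in shTet2 than in shTet1 by their means. For LTRs this was common to the family, as 43 of the 49 MaLR LTRs were lower and 46 higher in these comparisons. Among the 51 MaLR internal parts it was 30 and 37. Leaving ORR1A3-int aside, the 4 internal parts had a median difference of −0.41 in shTet1 and −0.02 in shTet2 against shScr, and of 0.42 between the knockdowns. The 5 LTRs had −0.15, 0.05 and 0.18 in the same comparisons. In shTet1 against shScr the LTR median was −0.67 within replicates 1 and 2 and turned to 0.17 within replicates 3 to 5. That of the 4 internal parts was −0.88 and −0.08.

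ORR1A1-int, the internal part of ORR1A1, was next to ORR1A3-int. Its values were 12.32, 12.71, 12.65, 13.05 and 12.41 for shScr, 11.66, 11.66, 12.73, 12.70 and 12.17 for shTet1, and 12.71, 12.74, 12.92, 13.08 and 12.85 for shTet2. The shTet2 libraries overlapped the upper part of the control range, and 1 shTet1 library lay above the lowest shTet2 library. The difference between the knockdowns was 0.68 (SE 0.24), or 1.52-fold in mean scaled reads and higher in 5 of 5 pairs, with an unadjusted p under 0.05 and an adjusted p of 0.999. Of 14 alternatives other than leaving out 1 library, 5 called ORR1A1-int between the knockdowns in limma, with adjusted p from 8.25e-05 to 0.0405. They were array weights (1.07), replicates 1 and 2 alone (1.06), the fit without the 4 libraries with many receptor reads (0.97), receptor share as a covariate (0.62) and the replicate block with centring (0.55). Its LTR, ORR1A1, differed by 0.32 (SE 0.25).

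In ORR1A0 the LTR differed more than the internal part between the knockdowns, and less in shTet1 against shScr. The LTR class was 12.41, 12.82, 12.76, 12.81 and 12.51 for shScr, 11.67, 11.78, 12.67, 12.71 and 12.51 for shTet1, and 12.73, 12.80, 13.00, 12.99 and 13.08 for shTet2. Its knockdown groups narrowly did not overlap, and shTet2 overlapped the control. The difference between the knockdowns was 0.65 (SE 0.22, 1.51-fold in mean scaled reads, adjusted p = 0.999). ORR1A0-int spanned 13.55 to 13.99 for shScr, 12.83 to 13.66 for shTet1 and 13.60 to 13.96 for shTet2. Its difference from shScr was −0.52 in shTet1 (SE 0.20, 71.7% of the control mean, lower in 5 of 5 pairs, adjusted p = 1.00), and it stood at 94.2% of the control in shTet2. The LTR differed by −0.40 in shTet1 from shScr, and ORR1A0-int by 0.44 between the knockdowns (SE 0.20, unadjusted p under 0.05, adjusted p = 0.999).

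ORR1A2-int differed by −0.37 in shTet1 and 0.04 in shTet2 against shScr, and by 0.41 between the knockdowns, and its LTR by −0.15, 0.03 and 0.18. ORR1A4-int differed by −0.24, −0.13 and 0.11, and its LTR by −0.14, 0.04 and 0.18. These 4 classes overlapped between all groups and none had an unadjusted p under 0.05 on the deposited values.

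Over all 5 libraries per group, the older ORR1 classes, B to E, showed small differences of common sign in shTet1 against shScr and between the knockdowns. All 8 of their internal parts were lower in shTet1 than in shScr by their means (median −0.20, from −0.29 in ORR1B1-int to −0.06 in ORR1B2-int), and all 8 were higher in shTet2 than in shTet1 (median 0.24, from 0.09 in ORR1C1-int to 0.29 in ORR1B2-int). In between lay ORR1C2-int (0.27), ORR1E-int (0.26), ORR1D2-int (0.24), ORR1B1-int (0.23), ORR1D1-int (0.16) and ORR1D-int (0.15). Their 7 LTRs had medians of −0.09 in shTet1, 0.01 in shTet2 and 0.09 between the knockdowns, with ORR1B1 furthest from 0 at −0.15, 0.21 and 0.36. ORR1D1, the ORR1 LTR with the most reads, differed by −0.09, −0.01 and 0.08 while its 15 values ran from 13.28 to 14.63. The sign in shTet1 against shScr depended on the replicates. The median of the 8 internal parts was −0.73 within replicates 1 and 2 and 0.12 within replicates 3 to 5. That of the 7 LTRs was −0.62 and 0.25. Between the knockdowns the 8 internal parts had 0.34 and 0.12. No class of ORR1B to E had an unadjusted p under 0.05 on the deposited values.

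Among MT classes, the internal part of the young MTA_Mm subfamily was the 1 class with an unadjusted p under 0.05, between the knockdowns. MTA_Mm-int was 14.81, 15.02, 14.77, 15.00 and 14.67 for shScr, 14.13, 14.02, 14.84, 14.74 and 14.67 for shTet1, and 14.81, 14.68, 15.07, 15.05 and 14.91 for shTet2. Replicates 1 and 2 of shTet1 were below all other libraries, and the other 3 overlapped both groups. The differences were −0.37 in shTet1 and 0.05 in shTet2 against shScr, and 0.43 between the knockdowns (SE 0.19, 1.32-fold in mean scaled reads, higher in 5 of 5 pairs, adjusted p = 0.999). The LTR MTA_Mm differed by −0.24, −0.08 and 0.16.

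The 9 internal parts of MTB to MTE had a median difference of −0.04 in shTet1, −0.01 in shTet2 and 0.15 between the knockdowns. The last ranged from −0.17 in MTE2a-int to 0.28 in MTB_Mm-int, with MTD-int at 0.22, MTB-int at 0.20, MTE2b-int at 0.19, MTEa-int at 0.15, MTE-int at 0.11, and MTEb-int and MTC-int at 0.07. The 8 LTRs had medians of −0.10, 0.02 and 0.11. MTD, with 28068 reads at the median library the most of any MaLR class, differed by −0.10, 0.00 and 0.10. None of these classes had an unadjusted p under 0.05.

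MLT1, the oldest of the 3 families, gave no class with an unadjusted p under 0.05 in any comparison on the deposited values. Its 28 LTRs had median differences of −0.08 in shTet1, 0.03 in shTet2 and 0.11 between the knockdowns. MLT1A0, the one with the most reads, differed by −0.12, 0.01 and 0.13, and MLT1J1 was furthest from 0 between the knockdowns at 0.38. The 28 internal parts were covered thinly, with a median of 19 reads per library over the classes, and only 6 had a median of 100 reads or more. Those 6 were MLT1-int (0.02 between the knockdowns), MLT1F-int (−0.08), MLT1D-int (−0.02), MLT1J-int (0.13), MLT1A0-int (−0.02) and MLT1H-int (0.06). Among the other 22 the differences between the knockdowns ran from −0.31 in MLT1N2-int to 0.56 in MLT1F1-int, which had between 1 and 106 reads per library. The highest of the 100 classes were taken among those at least 2 units over the minimum in the higher group. In shTet1 against shScr they were MLT1H2-int (0.48), MLT1H1-int (0.33) and MLT1F2-int (0.32). In shTet2 against shScr ORR1A3-int was highest (0.66), followed by MLT1E1A-int (0.48), MLT1I-int (0.41) and MLT1G-int (0.37). Under the same limit the lowest in shTet2 against shScr were MLT1A0-int (−0.29), the LTR MLT1G1 (−0.27) and MLT1E2-int (−0.17), and between the knockdowns MTE2a-int (−0.17), MLT1G3-int (−0.17) and MLT1H2-int (−0.14). Below that limit, MLT1G1-int differed from shScr by 0.48 in shTet1 and 0.61 in shTet2, as far as or further than the MLT1 classes named.

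**Figure D2:**
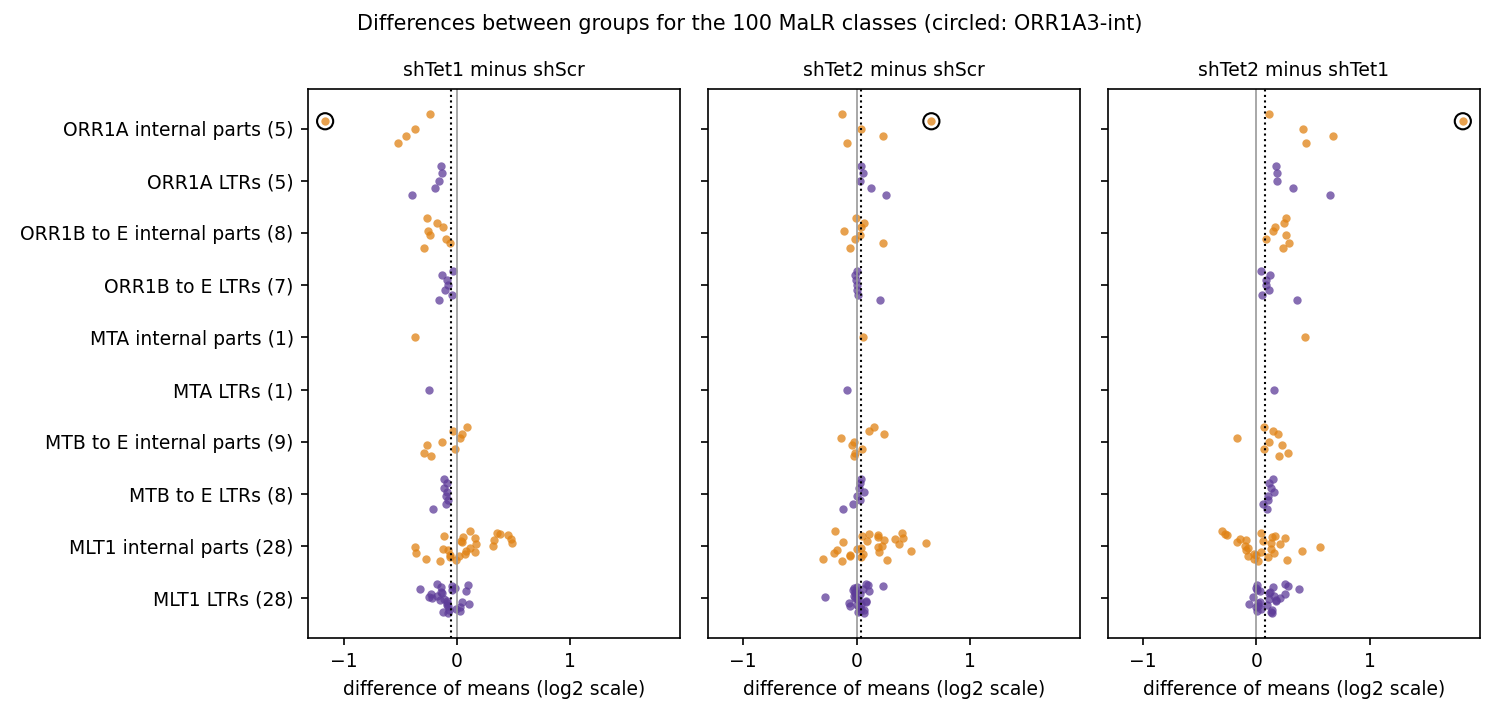
Difference of group means on the log2 scale for each of the 100 MaLR classes, by subfamily and kind (number of classes in brackets), in the 3 comparisons; the grey line is 0 and the dotted line the median of all 1187 tested repeat classes. ORR1A3-int (circled) lies at −1.16, 0.66 and 1.82, away from the other 99 classes between the knockdowns, which reach 0.68.

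Counted over the family, limma called 0 of 100 MaLR classes in shTet1 against shScr, 0 in shTet2 against shScr, and 1, ORR1A3-int, between the knockdowns. Before adjustment, 2, 0 and 5 of them had a p under 0.05. The 2 were ORR1A3-int and ORR1A0-int, both lower in shTet1, and the 5 were ORR1A3-int, ORR1A1-int, ORR1A0, MTA_Mm-int and ORR1A0-int, all higher in shTet2. Over all tested repeat classes 0.842%, 1.26% and 2.7% had an unadjusted p under 0.05 in these comparisons. Groups did not overlap for 0, 1 and 2 MaLR classes, namely ORR1A3-int in shTet2 against shScr and ORR1A3-int and ORR1A0 between the knockdowns, against 0.168%, 0.505% and 1.18% of all tested classes.

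The centre of the family differed little between groups. The median difference over the 100 classes was −0.09 in shTet1 against shScr, 0.03 in shTet2 against shScr and 0.12 between the knockdowns, beside −0.06, 0.04 and 0.08 over all 1187 classes. By their means 73 of 100 were lower in shTet1 than in shScr, 67 were higher in shTet2 than in shScr, and 83 were higher in shTet2 than in shTet1. Repeat classes as a whole leaned the same way, with 729, 721 and 830 of the 1187. After each library's repeat median was subtracted, the MaLR counts were 64 lower, 30 higher and 51 higher, and the median differences were −0.04, −0.04 and 0.00. Counts over all 1187 classes were then 601 lower, 518 higher and 454 higher. This centring shifted the median over all classes from 0.08 to −0.05 between the knockdowns.

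The medians of internal parts and LTRs lay near each other, and the difference between the 2 kinds was not tested. The 51 internal parts had a median difference of −0.06 in shTet1, 0.05 in shTet2 and 0.13 between the knockdowns, and the 49 LTRs had −0.10, 0.02 and 0.11. Leaving out ORR1A3-int gave −0.06, 0.05 and 0.13 for the other 50 internal parts. After centring, ORR1A3-int remained the 1 MaLR class called between the knockdowns, with a difference of 1.70 (SE 0.25, adjusted p = 0.00416), where 0.758% of all classes were called. Before adjustment, 7, 1 and 6 of the 100 MaLR classes then had a p under 0.05, beside 4.3%, 3.54% and 4.72% of all classes. In the first of these, all 7 were lower in shTet1, namely 4 ORR1A internal parts, 2 ORR1B to E internal parts and 1 MLT1 LTR. In the last, all 6 were higher in shTet2, among them 1 LTR of ORR1B to E and 1 of MLT1. Leaving out 1 library turned the sign of both medians in shTet1 against shScr without shScr replicate 4 or shTet1 replicate 1, 2 or 5, with ranges of −0.30 to 0.16 for internal parts and −0.29 to 0.09 for LTRs, so that no direction of these medians is taken as settled.

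Most MaLR classes rose and sank with the repeat median of the library. Over 15 libraries, which share a repeat median with the classes that make it up, Pearson's r between a class and that median was over 0.9 for 69 of 100 classes and over 0.95 for 52. It had a median of 0.95 and was highest for the LTR MLT1B at 0.99. Of the 78 classes with a median of at least 100 reads, the 5 with the lowest r were ORR1A3-int (0.45), ORR1A0-int (0.59), ORR1A0 (0.62), MTA_Mm-int (0.70) and MLT1G1 (0.71). Those are, but for MLT1G1, classes that also had an unadjusted p under 0.05. Group means were not removed for this r, so a difference between groups can itself lower it.

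The SD within groups over the 100 classes had a median of 0.57, and of 0.21 after centring. In the LTRs it fell from 0.54 to 0.17, and in the LTR ORR1B2 it was lowest after centring at 0.06. ORR1A3-int kept an SD of 0.44 after centring, the third highest of the 78 classes with at least 100 reads, behind MLT1J-int (0.57) and the LTR MLT1I (0.44), both of which had far fewer reads. The set of replicates also bore on the whole family. In shTet1 against shScr, replicates 1 and 2 alone gave a median of −0.56 over the 100 classes with 62 called, where 39.4% of all repeat classes were called, and replicates 3 to 5 alone gave a median of 0.21 with 0 called.

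**Figure D3:**
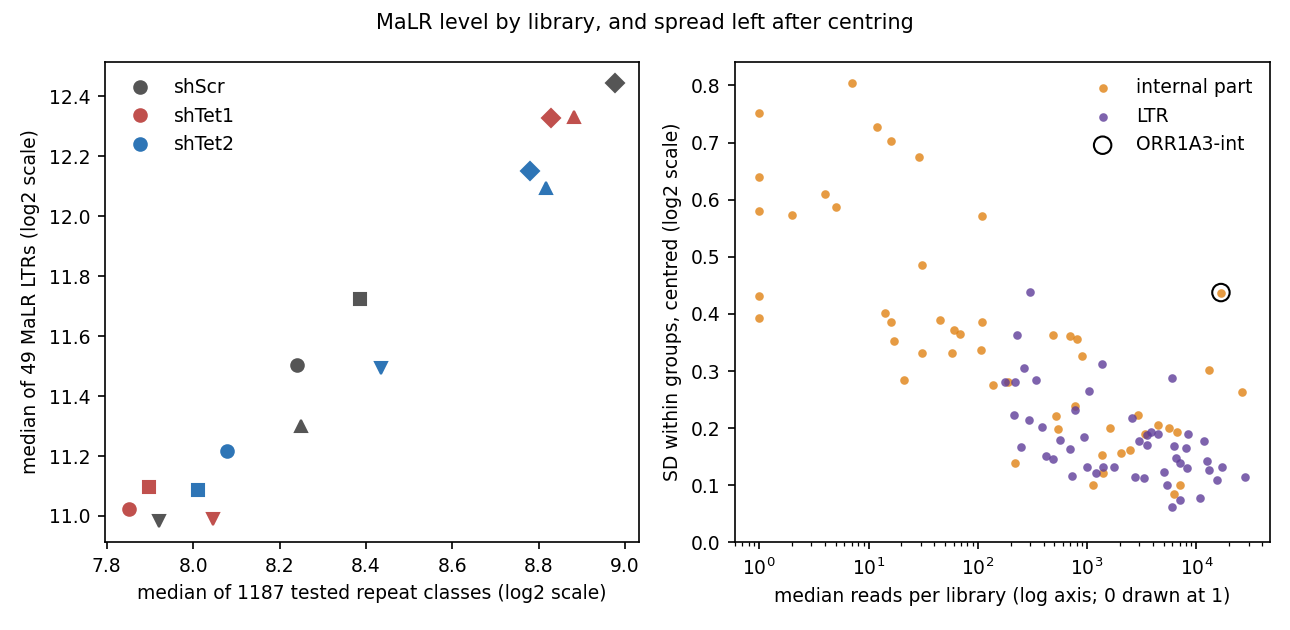
Left, median of the 49 MaLR LTRs against the median of 1187 repeat classes in each of 15 libraries (log2 scale, symbols by replicate as in the plot of values); right, SD within groups after centring on the library's repeat median, against median reads (log axis), for the 100 classes. The LTR median ran from 10.98 to 12.44 along with the repeat median, and ORR1A3-int (circled) had an SD of 0.44 at 16753 reads.

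Of the 5 classes most like ORR1A3-int, none was a MaLR class by the naming rule, and all but MT-int were MERVL or MT2 classes of the ERVL group. Likeness was Pearson's r over 15 libraries of values centred on the repeat median, taken over 1186 other classes, and it includes the differences between groups. The 5 highest were MERVL-int (0.99), the internal part of the MERVL retrovirus, its LTR MT2_Mm (0.98), MERVL_2A-int (0.97), MT-int (0.97) and MT2C_Mm (0.93). Within groups, with group means removed, they were 0.96, 0.94, 0.88, 0.87 and 0.77. The nearest MaLR class under the naming rule was ORR1A1-int at 0.91, followed by ORR1A0 (0.83), ORR1A2-int (0.83) and ORR1A1 (0.73). Over the 99 other MaLR classes the median r was −0.08, as it was over all 1186, and 3 exceeded 0.8.

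MERVL-int stood at 15.35, 16.47, 18.00, 17.63 and 17.60 for shTet1, with replicates 1 and 2 lowest as for ORR1A3-int, against 17.89 to 18.77 for shScr and 18.89 to 19.45 for shTet2. Its difference was −1.43 in shTet1, 0.73 in shTet2 and 2.15 between the knockdowns, and that of MT2_Mm −1.28, 0.72 and 1.99. ORR1A3-int followed with smaller differences. ORR1A3-int minus MERVL-int was −4.24 ± 0.24 for shScr, −3.98 ± 0.23 for shTet1 and −4.31 ± 0.06 for shTet2 (SD, n = 5 each). MERVL-int, MT2_Mm and ORR1A3-int were the 3 classes called between the knockdowns. Whether reads of ORR1A3-int came from its own promoter or from transcripts that start elsewhere cannot be told apart in reads pooled over all copies of a class.

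**Figure D4:**
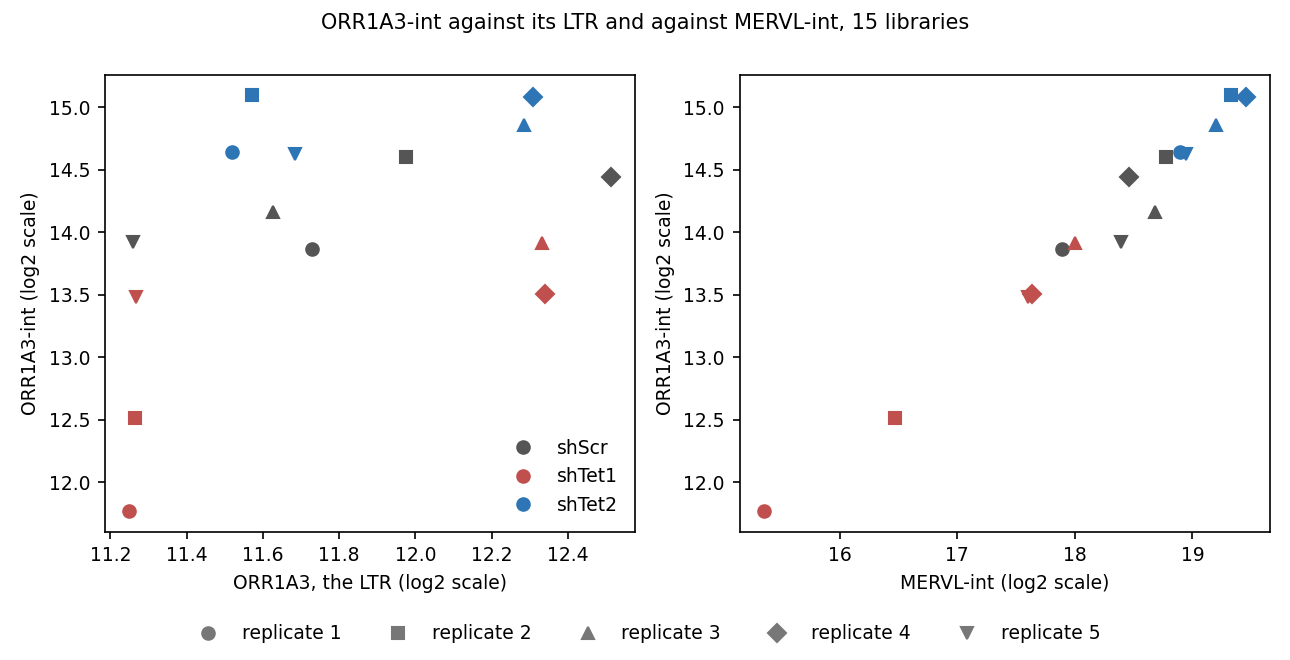
Value of ORR1A3-int (vertical axis, log2 scale) against its LTR ORR1A3 (left) and against MERVL-int (right) in each of 15 libraries, coloured by group with symbols by replicate. Libraries at the same ORR1A3 value differ in ORR1A3-int by group, whereas ORR1A3-int and MERVL-int lie close to a line that runs through all groups.

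The share of MaLR reads in all repeat reads was 3.95% ± 0.34 for shScr, 3.66% ± 0.64 for shTet1 and 3.72% ± 0.28 for shTet2 (SD, n = 5 each), which overlapped throughout. Within the MaLR reads, ORR1A3-int took 5.08% ± 0.95 for shScr, 2.72% ± 0.99 for shTet1 and 7.75% ± 1.92 for shTet2. Its lowest shTet2 library stood at 6.06% and its highest shTet1 library at 4.18%. Counts behind this share were 14050 to 20610 reads for shScr, 4360 to 12169 for shTet1 and 20170 to 54794 for shTet2. Without ORR1A3-int the other 99 classes held 3.75% ± 0.35, 3.56% ± 0.64 and 3.43% ± 0.24 of the repeat reads. Shares depend on how many copies a class has and how long they are, and say nothing of RNA per copy.

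**Figure D5:**
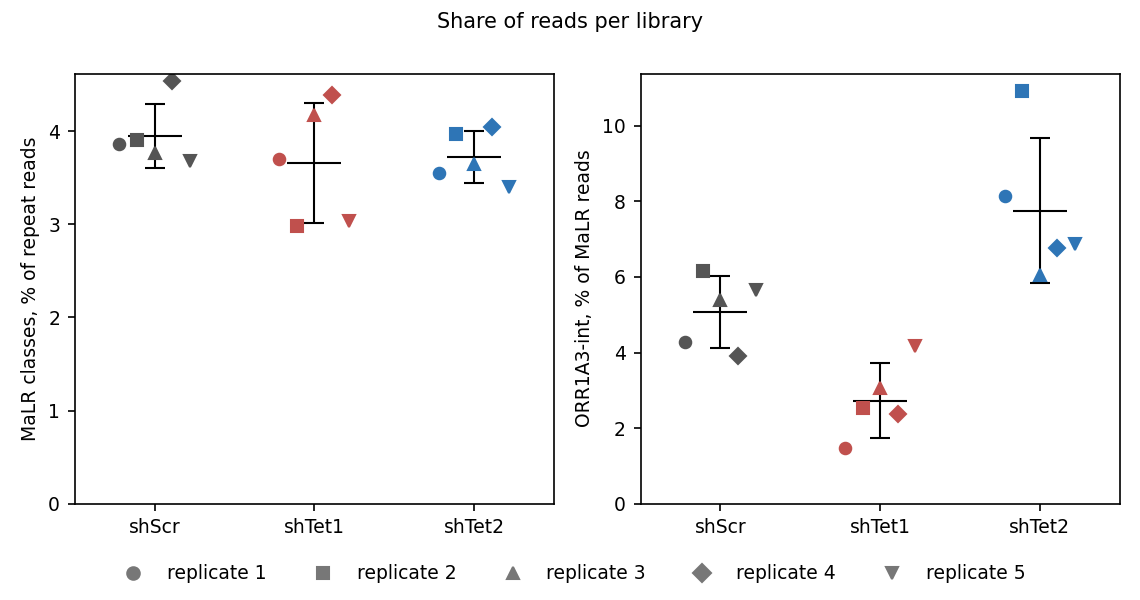
Reads of the 100 MaLR classes as a percentage of repeat reads (left) and reads of ORR1A3-int as a percentage of MaLR reads (right), per library; symbols are replicates, bars the mean and SD of 5 libraries, and both axes start at 0. The family's share overlaps between groups, whereas ORR1A3-int ranges from 6.06% to 10.9% in shTet2 and from 1.48% to 4.18% in shTet1.

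Genes of the 2-cell-like state moved in the same order as ORR1A3-int. Of 16 genes listed, 12 were tested, among them the Zscan4 genes, which act at telomeres, and Zfp352. All 12 were higher in shTet2 than in shTet1 and all were called, where 4.24% of 19490 genes were called. Zscan4c averaged 12.20 ± 0.24 for shScr, 10.92 ± 0.91 for shTet1 and 13.16 ± 0.35 for shTet2 (SD, n = 5 each). Against shScr, 0 of the 12 were called in shTet1 (0.0718% of all genes) and 1, Tdpoz3, was called in shTet2 with a difference of 1.32 (0.39% of all genes). With the replicate number as a block, 9 of the 12 were called lower in shTet1 than in shScr, where 4.8% of all genes were called in either direction. The block called 6 of the 12 higher in shTet2 than in shScr (4.31% of all genes), 2 groups that the numbers were not taken to pair. The list was drawn up with earlier results of these libraries known.

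The 24 listed regulators of ERVL elements, among them the histone demethylase Kdm1a, the co-repressor Trim28 and the histone methyltransferases Setdb1, Ehmt1 and Ehmt2, had 0 called in each of the 3 comparisons by limma. Over all genes 0.0718%, 0.39% and 4.24% were called in these comparisons, so that 0 of 24 is near those shares. The median differences of the 24 were −0.03 in shTet1, −0.06 in shTet2 and 0.04 between the knockdowns, beside 0.01, 0.04 and 0.01 over all genes. With the replicate number as a block, 1 of the 24, Rif1, was called lower in shTet1 than in shScr (−0.55). The block called 4.8% of all genes there. Rif1 is a chromatin protein that binds telomeres and late replicating DNA. Between the knockdowns 1 of the 24, Suv39h2, a histone H3 lysine 9 methyltransferase, was called lower in shTet2 (−0.37). The block called 11.2% of all genes in that comparison. For a list of this size neither count is above the share over all genes.

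Markers of other cell types were few in reads. The summed scaled reads of 5 primitive endoderm markers were 558 to 930 for shScr, 355 to 631 for shTet1 and 178 to 442 for shTet2. Of the 5, 0 were called. With the replicate block 2, Pdgfra and Dab2, were called lower in shTet2 than in shTet1 (11.2% of all genes called) and than in shScr (4.31%). The numbers were not taken to pair shTet2 with shScr. Of 5 trophoblast markers listed, 4 were found and tested, all but Tfap2c. Among these 4, 1, Ascl2, was called higher in shTet2 than in shTet1, where 4.24% of all genes were called. Their summed scaled reads were 78.8 to 139 for shScr, 44.7 to 65.7 for shTet1 and 81.1 to 223 for shTet2, with Elf5 near 0 at a mean of 0.989. Most of these reads were of Ascl2, with a mean of 86.9, and Cdx2 differed by −0.18 in shTet2 from shScr and Elf5 by 0.09 in shTet1. The 8 embryonic stem cell markers were all lower in shTet2 than in shTet1 by their means (median −0.34, 0 called beside 4.24% of all genes). With the block 1 of the 8, Dppa5a, was called, where 11.2% of all genes were called. Of the 8 markers, 7 were higher in shTet1 than in shScr (median 0.23, 0 called beside 0.0718% of all genes). Their part in the difference of ORR1A3-int was not tested. In these bulk libraries, more cells of a 2-cell-like type and more RNA per such cell cannot be told apart.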

How the data were processed

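Directional, rRNA-depleted RNA-seq libraries were made by the authors from E14 cells, 5 libraries in each of 3 groups. Per the labels, reads were trimmed (Trim Galore 0.3.3) and aligned to mm9 (TopHat2 2.0.9). The authors pooled reads over all copies of a repeat class and deposited variance-stabilised values (DESeq2, version not given in the sources used here) on a log2 scale, with 1217 repeat classes and 26061 genes. The labels name 2 RNA extraction kits and not which library had which. Reads were recovered by inverting the transformation. All values up to 1000 reads came out whole within 0.05.

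Differences were tested on the deposited log2 values with limma 3.58.1 (R 4.3.3; variance trend, moderated, all 15 libraries in 1 fit), with Benjamini-Hochberg adjustment over 1187 repeat classes or 19490 genes and a threshold of 0.05. The ORR1A3-int minus ORR1A3 value was tested by an exact permutation test. Depth is given as recovered reads, and p-values and SDs cover all spread between libraries. The script was tested on simulated data with independent noise in each class and library. That test did not cover the shared movement of classes with the repeat median. Equal replicate numbers deviated together over genes in shTet1 with shScr (r 0.374 to 0.657) and shTet2 with shTet1 (0.330 to 0.731), so the numbers were taken to pair them, whereas in shTet2 with shScr 1 pair had 0.00789. That pairing comes from the data and not from the labels.

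MaLR members, gene lists and the singling out of ORR1A3-int were chosen with earlier results of these data known. Named were ORR1A3-int and all ORR1A classes, tested internal parts (of the 28 in MLT1, those with a median under 100 reads by their range and extremes), classes with a p under 0.05, the 3 highest and 3 lowest per comparison among classes at least 2 units over the minimum, the class with the most reads per family and kind, MERVL-int, MT2_Mm, the 5 classes most like ORR1A3-int, Tet1, Tet2, and called genes of 2 lists. Alternatives were the filter, trend, groups in the fit, centring, quantile normalisation, log2(scaled reads + 1), array weights, replicate block, receptor share, replicate sets and leaving out each library.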

Additional observations from a re-analysis of the deposited data

Results flagged for a closer look

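In shScr replicate 4 the share of MaLR reads in repeat reads was 4.54%, above the other 4 libraries of its group. Its gap to the next library was 0.736 of the range of the group, over the limit of 0.71 for 5 samples. This was the only one of 39 groups of values so examined, and chance marks about 1 group in 20. The same library had 61.5 receptor reads in 1000000 gene reads and a repeat median of 8.98, the highest of shScr in both. The part of these in the share was not tested.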

How the results depend on the processing

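The direction of ORR1A3-int held in all 3 comparisons under every alternative run. Its call between the knockdowns was lost with only those groups in the fit (1.82, adjusted p = 0.112) and in replicates 3 to 5 (1.22), and leaving out 1 library gave 1.51 to 2.04. Against shScr it was gained in shTet1 with array weights (−1.65), with receptor share as covariate (−1.21) and in replicates 1 and 2 (−2.09). With median centring, leaving out any 1 library kept that call between the knockdowns (1.50 to 1.88, adjusted p up to 0.0194), an alternative chosen after seeing the data, as was the fit without 4 libraries.

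In shTet1 against shScr the number of MaLR classes called was 6 with array weights (1.85% of all repeat classes called), 1 with receptor share (0.337%) and 62 in replicates 1 and 2 (39.4%). Between the knockdowns it was 66 with array weights (44.7%), 2 with receptor share (0.842%), 2 without the 4 libraries with many receptor reads (0.842%), 5 in replicates 1 and 2 (1.52%), 0 in replicates 3 to 5 (0.168%) and with only those groups in the fit (0%), and 0 to 1 when leaving out 1 library. The cause was not tested. In shTet2 against shScr it was 0 throughout.

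The replicate block gave 0, 0 and 1 calls and an adjusted p for ORR1A3-int of 0.0877 in shTet1 against shScr and 0.000359 between the knockdowns, and changed no call of a MaLR class. The block with median centring called 2 between the knockdowns (1.26%). Sign flips within pairs of the excess of ORR1A3-int over ORR1A3 (−1.03, 0.61 and 1.64) gave an exact p of 0.0625 each, above the threshold by construction, an alternative chosen after seeing the data. The excess of ORR1A3-int over ORR1A3 was −1.50 in shTet1 against shScr and 2.44 between the knockdowns in replicates 1 and 2, and 1.11 between the knockdowns in replicates 3 to 5, which are too few for a test to pass. ORR1A2-int reversed to 0.026 in shTet1 against shScr in replicates 3 to 5. Median differences of internal parts and of LTRs moved by less than the SD between libraries but turned sign, in shTet1 against shScr to 0.19 and 0.21 in replicates 3 to 5, and when leaving out 1 library ran from −0.30 to 0.16 and −0.29 to 0.09 there, from −0.11 to 0.28 and −0.12 to 0.22 in shTet2 against shScr, and from −0.04 to 0.33 and −0.02 to 0.31 between the knockdowns. Depth limits the MLT1 internal parts.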

Other observations

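The internal classes MT-int and MLT-int lay outside the naming rule. MT-int, the unassigned internal part of MT elements, differed by −0.40 in shTet1 and 0.26 in shTet2 against shScr and by 0.66 between the knockdowns, which was 1.52-fold in mean scaled reads and higher in 5 of 5 pairs, with an adjusted p of 0.999 in limma and of 0.0186 after median centring. MLT-int differed by 0.05, −0.07 and −0.13 in the same comparisons.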
